A study of Mus musculus with 6 samples.

Results

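Activins and bone morphogenetic proteins (BMPs) were followed here through 10 genes, taken by symbol from a table of 24940 genes: the ligand genes Inhba, Inhbb, Bmp4, Bmp5 and Bmp10, the antagonist gene Fst, the inhibitory SMAD genes Smad6 and Smad7, and the target genes Id1 and Id3. All 10 were in the table. The samples were primary hepatic stellate cells, the pericytes of the liver sinusoid, isolated from wild-type female C57BL/6JBomTac mice. The OCA+VIP group (3 libraries) received 10 µM obeticholic acid (OCA), a bile acid analogue that activates the nuclear receptor FXR, on day 2 after isolation, followed 3 h later by 500 nM vasoactive intestinal peptide (VIP), a neuropeptide that acts through cAMP, for a further 3 h. The DMSO+VIP group (3 libraries) received the same volume of the solvent DMSO (diluted 1:1000) and then the same VIP. Every library therefore came from cells exposed to VIP, and the comparison is of OCA with its vehicle on that background. Whether the libraries within a group stem from different mice or cultures is not stated, so the p-values below measure the spread between these libraries, which may be technical.

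Activins are dimers of inhibin beta subunits that bind type II activin receptors and lead to phosphorylation of SMAD2 and SMAD3. BMPs use related receptors and act through SMAD1, SMAD5 and SMAD9, whose target genes include the Id genes and the inhibitory SMADs, which feed back on the pathway. Follistatin, the product of Fst, binds activins and blocks them. In the liver, stellate cells are a known source of BMP10 and of the closely related BMP9, the product of Gdf2, both of which bind the receptor ALK1 of endothelial cells.

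RNA of the activin beta A gene Inhba, of both Bmp5 and Bmp10 and of the inhibitory SMAD gene Smad6 was lower in OCA+VIP than in DMSO+VIP libraries. The fall was 3.30-fold for Inhba, 2.96-fold for Bmp5, 1.83-fold for Smad6 and 1.66-fold for Bmp10. Smad7, Id1, Id3 and Bmp4 had positive fitted changes that did not pass the test, and Fst and Inhbb were too low to test. Of the 8 genes tested, 4 were called lower, 0 higher and 4 neither (quasi-likelihood F test of edgeR, with p adjusted by the Benjamini-Hochberg method over 11286 genes and a threshold of 0.05). Over all tested genes 6.04% were called lower and 5.72% higher, 11.8% in all. At an unadjusted p under 0.05, 1 of the 8 was higher, Smad7, and 4 were lower. At least 2896 of the 11286 tested genes had an unadjusted p under 0.05 in either direction, so such a p is common here. The median log2 fold change of the 8 was -0.19, against 0.001 over all tested genes. It falls in the gap between the 4 lower genes and the 4 with positive changes, so it describes neither. In these bulk samples, fewer cells of a type and less RNA per cell cannot be told apart.

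**Figure D1:**
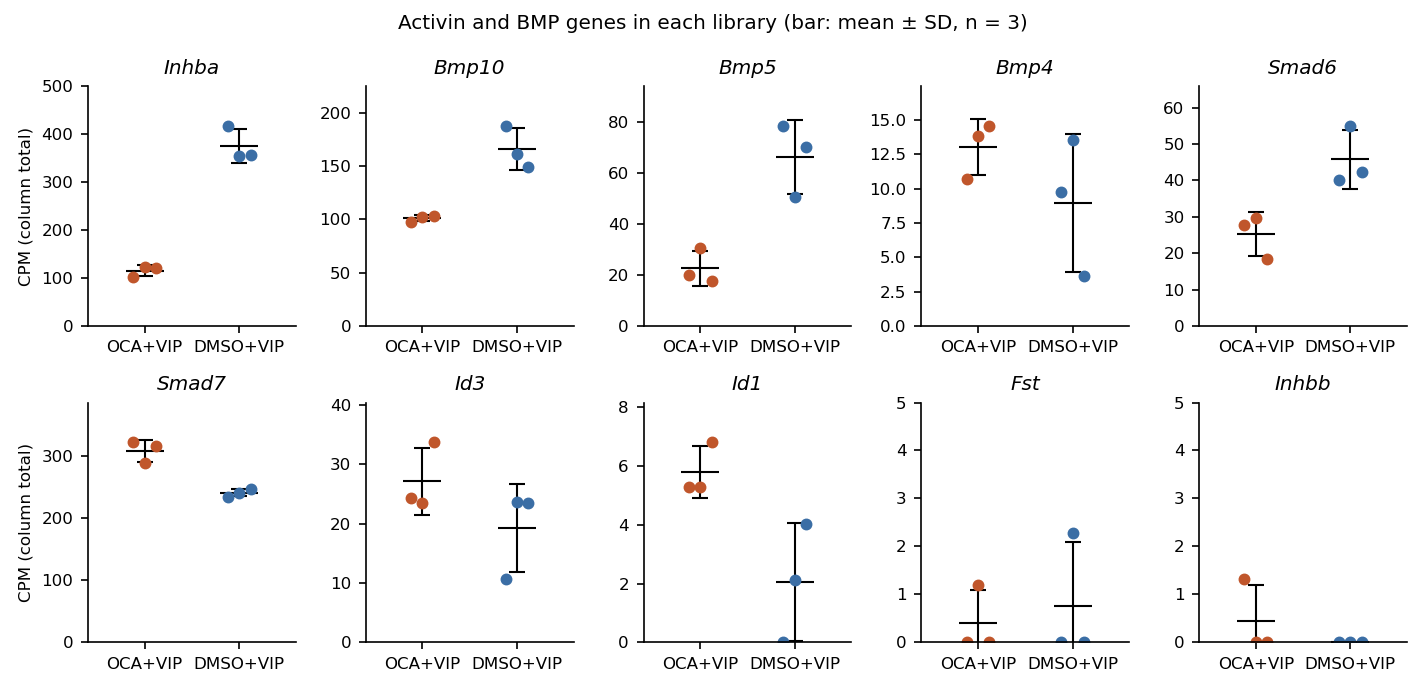
CPM (counts scaled to each column's total) of the 10 genes in each library, OCA+VIP left and DMSO+VIP right; points are libraries and bars the mean and SD (n = 3). Inhba, Bmp10, Bmp5 and Smad6 lie lower in all 3 OCA+VIP libraries, for Inhba at 103 to 123 CPM against 355 to 417 CPM, while Fst and Inhbb are at 0 in most libraries.

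Counts summed to 4.53e+06 to 9.95e+06 in OCA+VIP and 2.84e+06 to 4.57e+06 in DMSO+VIP libraries, and OCA+VIP library 2 was deepest. Of 10 stellate cell markers all were tested, 3 were called higher (Pdgfra, Colec11 and Ngfr) and 1 lower (Des). Over all tested genes 5.72% were called higher and 6.04% lower. The summed level of the stellate cell markers was 587 to 739 CPM (counts scaled to a common library total) with OCA+VIP and 572 to 809 CPM with DMSO+VIP. The 10 hepatocyte markers summed to 228 to 385 CPM with OCA+VIP and 67.8 to 75.3 CPM with DMSO+VIP, and Cps1 and Tat were at 0. The other 8 were tested and called higher, but 5 of them passed the filter on low counts through their OCA+VIP libraries, 3 with a count of 0 in every DMSO+VIP library and 2 with 18.5 and 37 counts in that group, so the number of calls carries little weight. Alb, the albumin gene, which was well counted in both groups, had 174, 106 and 158 CPM with OCA+VIP, and 38.0, 38.2 and 42.2 CPM with DMSO+VIP. The part of these markers in the results given here was not tested. Liver endothelial markers summed to 18.7 to 34.2 CPM with OCA+VIP and 21.4 to 39.8 CPM with DMSO+VIP, with Lyve1 at 0. Egfl7, which was called lower, made up a large part of this sum. The other 3 tested, Pecam1, Tek and Stab1, had few counts. Their fitted log2 changes were positive (1.89, 0.73 and 0.46) and were not called. Macrophage markers summed to 32.8 to 44.8 CPM with OCA+VIP and 15.3 to 47.3 CPM with DMSO+VIP. Of this sum Cd68 made up 24.4 to 36.1 CPM with OCA+VIP and 15.3 to 26.5 CPM with DMSO+VIP. C1qa, C1qb and Vsig4 were at 0. The highest DMSO+VIP sum was that of library 3, with Lyz2 at 10.4, Csf1r at 8.97 and Marco at 6.56 CPM. In DMSO+VIP libraries 1 and 2, Lyz2 and Marco were at 0, and Csf1r had 2.62 and 0 CPM. Of 6 cholangiocyte and mesothelial markers Krt7, Msln and Upk3b were at 0 and the sum was 12.4 to 15.9 CPM with OCA+VIP and 2.29 to 13.3 CPM with DMSO+VIP. Of 5 lymphocyte markers 4 were at 0, and Cd79a had 3.67 to 8.35 CPM with OCA+VIP and 0 CPM with DMSO+VIP.

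Inhba encodes the beta A subunit, which forms activin A as a homodimer (chromosome 13, 16011851 to 16031609, mm10). It had 103, 123 and 120 CPM in OCA+VIP libraries 1 to 3, and 417, 355 and 357 CPM in DMSO+VIP libraries 1 to 3. The groups were far apart, the highest OCA+VIP library lying well under the lowest DMSO+VIP library, and the libraries of each group lay close together. The log2 fold change was -1.72 (SE 0.12, 95% interval -1.98 to -1.47, edgeR adjusted p = 9.7e-09). Inhba had the second smallest p of all genes tested, and its adjusted p stayed at or under 5.9e-06 when any 1 library was left out. The other activin subunit gene among the 10 genes, Inhbb (chromosome 1, 119415463 to 119422248), which encodes beta B, had 6 counts in OCA+VIP library 1 and 0 in each of the other 5 libraries.

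Bmp10 (chromosome 6, 87428994 to 87434512) had 97.7, 103 and 103 CPM with OCA+VIP, and 188, 161 and 149 CPM with DMSO+VIP. The 3 OCA+VIP libraries were nearly equal and did not overlap the DMSO+VIP libraries. Its log2 fold change of -0.73 (SE 0.13) had an edgeR adjusted p of 5.8e-04. Bmp5, a BMP of the group that also holds BMP6 and BMP7, had 19.96, 30.6 and 17.7 CPM with OCA+VIP, and 78.6, 50.5 and 70.2 CPM with DMSO+VIP. OCA+VIP library 2 and DMSO+VIP library 2 were the nearest to each other, and the groups still did not overlap. The log2 fold change of Bmp5 was -1.57 (SE 0.22, edgeR adjusted p = 5.3e-05), and it was called without any 1 library (adjusted p at most 0.0023). In the GENCODE annotation an antisense gene, Gm26903, shares 46.7% of the exon bases of Bmp5 (chromosome 9, 75775365 to 75900316), and reads of the pair cannot be told apart where counting ignores strand, on which the sources used here are silent.

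Bmp4, a BMP that patterns embryonic tissue and is made by many mesenchymal cells, had the fewest counts among the 4 tested ligand genes of the 10 (chromosome 14, 46383525 to 46390669). It had 10.7, 13.8 and 14.6 CPM with OCA+VIP, and 9.73, 13.6 and 3.62 CPM with DMSO+VIP, so the groups overlapped and DMSO+VIP library 3 was low. Its log2 fold change of 0.53 had a 95% interval from -0.39 to 1.46 (edgeR adjusted p = 0.49), which covers both a fall and a rise. A gene on the opposite strand, Gm15217, shares 3.96% of its exon bases in GENCODE.

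Fst, the follistatin gene (chromosome 13, 114452262 to 114458951), had 12 counts in OCA+VIP library 2, 6.5 counts in DMSO+VIP library 2 and 0 in the other 4 libraries. Low counts in this table come in steps of about 6, and a total of 3 such steps, 18 counts over a group, was taken as the limit compatible with a count of 0. It corresponds to 0.887 CPM over the OCA+VIP group and 1.61 CPM over the DMSO+VIP group. Fst and Inhbb were under this level in both groups, so no fold is given for either, and a difference was not detectable at this depth. The ratios of Inhba to Fst and of Inhba to Inhbb could for that reason not be formed.

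The windows around the annotated starts of the 4 genes that fell are printed because each of these genes was called lower. RefSeq promoter sequences (GRCm38.p6, 250 bases before to 50 bases after the start) were matched for 7 of the 10 genes, Inhba, Inhbb, Bmp4, Bmp5, Bmp10, Smad6 and Id3, and each window lay at the start that the count table gives for the gene. They were searched on both strands for TGACGTCA, the full cAMP response element, which 1.79% of 32851 such windows in the genome hold, for its TGACG core (20.8%), for the BMP response element GGCGCC (11.9%), for the palindromic SMAD element GTCTAGAC (0.213%) and for an exact IR-1, the inverted repeat that FXR binds as a dimer with RXR (0.00913%). The full cAMP element contains the core, so windows with the full element are also among those counted for the core. The windows are chr13:16011601-16011900 (plus strand) for Inhba, chr9:75775115-75775414 (plus strand) for Bmp5, chr6:87428744-87429043 (plus strand) for Bmp10 and chr9:64022010-64022309 (minus strand) for Smad6. Each is written 5′ to 3′ along its gene, with capitals for a match and lower case for all other letters.
Inhba: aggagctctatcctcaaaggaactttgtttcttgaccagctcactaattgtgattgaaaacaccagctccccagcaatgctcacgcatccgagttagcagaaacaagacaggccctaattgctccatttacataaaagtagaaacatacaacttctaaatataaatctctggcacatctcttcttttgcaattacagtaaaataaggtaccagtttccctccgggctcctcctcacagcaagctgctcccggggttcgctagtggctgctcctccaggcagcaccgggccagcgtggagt
Bmp5: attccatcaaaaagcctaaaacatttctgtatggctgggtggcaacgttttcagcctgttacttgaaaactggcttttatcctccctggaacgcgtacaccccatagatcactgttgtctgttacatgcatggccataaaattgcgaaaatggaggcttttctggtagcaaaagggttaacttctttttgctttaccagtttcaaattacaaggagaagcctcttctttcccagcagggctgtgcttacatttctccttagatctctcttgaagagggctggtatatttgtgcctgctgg
Bmp10: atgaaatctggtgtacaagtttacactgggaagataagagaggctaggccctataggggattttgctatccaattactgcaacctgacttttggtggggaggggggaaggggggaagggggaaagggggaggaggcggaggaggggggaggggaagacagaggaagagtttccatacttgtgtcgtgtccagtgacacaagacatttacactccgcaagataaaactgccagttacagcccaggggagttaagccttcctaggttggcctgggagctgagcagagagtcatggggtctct
Smad6: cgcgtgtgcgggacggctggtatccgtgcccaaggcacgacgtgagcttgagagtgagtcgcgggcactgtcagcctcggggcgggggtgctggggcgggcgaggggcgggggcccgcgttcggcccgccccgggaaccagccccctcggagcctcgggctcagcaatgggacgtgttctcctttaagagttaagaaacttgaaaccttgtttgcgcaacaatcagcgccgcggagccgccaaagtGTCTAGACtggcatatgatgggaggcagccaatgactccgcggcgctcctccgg

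The Smad6 window holds the SMAD palindrome, whose first base lies at position -4 from the start, so that it spans the start itself. The windows of Inhba, Bmp5 and Bmp10 hold none of the letters searched. Among the others, the Id3 window holds 1 core of the cAMP element on the minus strand with its first base at position -170 from the start, and those of Inhbb and Bmp4 hold none. GC content was 47.7% for Inhba, 43.3% for Bmp5, 53.0% for Bmp10 and 66.3% for Smad6, and the median over all windows was 52.7%. A match is a description of letters in the window, and an absent one says nothing on whether a factor acts on the gene.

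Smad6 encodes an inhibitory SMAD that acts mainly on BMP signalling (chromosome 9, 63953076 to 64022059). It had 27.7, 29.8 and 18.3 CPM with OCA+VIP, and 40.0, 54.9 and 42.3 CPM with DMSO+VIP. All OCA+VIP libraries lay under all DMSO+VIP libraries, with OCA+VIP library 3 lowest and DMSO+VIP library 2 highest. Its fitted log2 change of -0.87 had an SE of 0.23 and an edgeR adjusted p of 0.016. Smad6 no longer passed without either of those libraries: the edgeR adjusted p was 0.11 without OCA+VIP library 3 and 0.089 without DMSO+VIP library 2.

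Smad7 encodes the other inhibitory SMAD, which acts on both the activin and TGF-beta branch and the BMP branch (chromosome 18, 75367365 to 75395934). It had 321, 288 and 315 CPM with OCA+VIP, and 235, 241 and 246 CPM with DMSO+VIP. The groups did not overlap, but the fitted log2 change of 0.35 (SE 0.12, 95% interval 0.09 to 0.60) missed the threshold, with an edgeR adjusted p of 0.066. Without OCA+VIP library 2, its lowest OCA+VIP library, the log2 fold change of Smad7 was 0.43 and it was called higher (edgeR adjusted p = 0.0070), and DESeq2 also called it (adjusted p = 0.041). In 11 of 16 alternatives Smad7 stayed uncalled, among them limma-voom (adjusted p = 0.052). Leaving out any 1 other library also left it uncalled (edgeR adjusted p from 0.14 to 0.22).

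The counts of Smad6 and Smad7 were also set against each other within each library, where depth and scaling cancel. The ratio of Smad6 counts to Smad7 counts was 0.0861, 0.103 and 0.0582 with OCA+VIP, and 0.171, 0.228 and 0.172 with DMSO+VIP. It was lower in all 3 OCA+VIP libraries, with a log2 difference of -1.23 (exact permutation test over the 6 libraries, two-sided, p = 0.10, 0.10 after adjustment over 3 ratios). This is the smallest p that 3 against 3 libraries can give. Smad6 lay lower and Smad7 higher in every OCA+VIP library, so the ratio had to separate the groups. It is therefore no test beyond those of the 2 genes.

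Among the ligands, 2 further ratios, chosen after the values were seen, were formed in the same way. There were 1.05, 1.198 and 1.16 Inhba counts per Bmp10 count with OCA+VIP, and 2.22, 2.20 and 2.39 with DMSO+VIP, a log2 difference of -0.997 with no overlap (exact permutation p = 0.10, adjusted 0.10). For Bmp5 to Bmp10 the ratio was 0.204, 0.298 and 0.171 with OCA+VIP, and 0.419, 0.313 and 0.470 with DMSO+VIP, a log2 difference of -0.86 (exact permutation p = 0.10, adjusted 0.10). In these libraries the Inhba and Bmp5 counts were thus lower relative to those of Bmp10 in each OCA+VIP library, although the 2 groups came close for Bmp5. Because these pairs were picked on the same values, the p-values of the 2 ratios carry no weight, and the ratios are a description only.

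**Figure D2:**
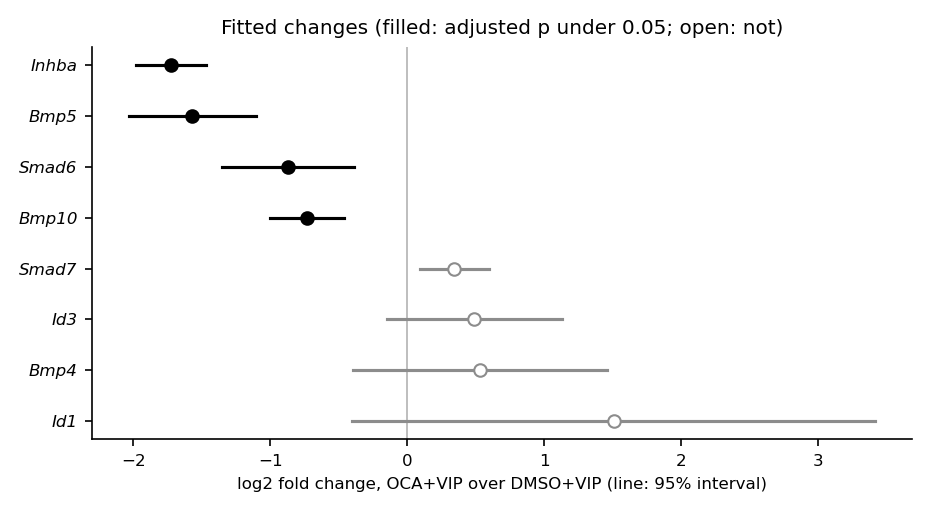
Fitted log2 fold changes of the 8 tested genes, OCA+VIP over DMSO+VIP, with 95% intervals (edgeR, 3 libraries per group). Filled points passed the test at an adjusted p under 0.05; these are Inhba (-1.72), Bmp5 (-1.57), Smad6 (-0.87) and Bmp10 (-0.73), and the intervals of the open points of Id3, Bmp4 and Id1 cross 0.

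Id1 and Id3 encode inhibitors of basic helix-loop-helix transcription factors and are classical BMP targets. Id3 (chromosome 4, 136143822 to 136145392) had 24.4, 23.5 and 33.7 CPM with OCA+VIP, and 10.7, 23.6 and 23.4 CPM with DMSO+VIP. The groups overlapped, with DMSO+VIP library 1 low and OCA+VIP library 3 high. Its log2 fold change was 0.49 (95% interval -0.15 to 1.13, edgeR adjusted p = 0.33).

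Id1 (chromosome 2, 152736251 to 152737410) had the fewest counts of the 8 tested genes. It had 24, 52.5 and 39.5 counts with OCA+VIP, or 5.29, 5.28 and 6.80 CPM, and 0, 6 and 15 counts with DMSO+VIP, or 0, 2.11 and 4.02 CPM. The values of the groups did not overlap, but the DMSO+VIP group held only 21 counts in all, near the limit set above, and Id1 passed the filter on low counts through its OCA+VIP libraries. The log2 fold change was 1.51 with a 95% interval from -0.40 to 3.41 (edgeR adjusted p = 0.32). Leaving out DMSO+VIP library 1 gave 0.88 (edgeR adjusted p = 0.55), and leaving out DMSO+VIP library 3 gave 2.58 (edgeR adjusted p = 0.18). Because DMSO+VIP library 1 had a count of 0, the planned ratio of Id1 to Id3 could not be formed.

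Levels of different genes were compared per kilobase of exon, as CPM divided by the transcript length in the table. In OCA+VIP libraries the order was Bmp10 (76.6 ± 2.34 CPM per kb), Smad7 (69.5 ± 4.04), Id3 (28.7 ± 5.96), Inhba (18.1 ± 1.70) and Smad6 (8.52 ± 2.05), followed by Bmp4, Id1 and Bmp5 between 5.95 and 6.34 CPM per kb (means ± SD, n = 3). In DMSO+VIP libraries it was Bmp10 (126 ± 14.9 CPM per kb), Inhba (59.1 ± 5.56), Smad7 (54.2 ± 1.30), Id3 (20.3 ± 7.80), Bmp5 (17.4 ± 3.77), Smad6 (15.4 ± 2.71), Bmp4 (4.37 ± 2.44) and Id1 (2.20 ± 2.16). Bmp10 was therefore the member of highest level per length in both groups, although its CPM was below that of Inhba and Smad7. Neighbours whose ranges over 3 libraries overlapped were Smad6, Bmp4, Id1 and Bmp5 with OCA+VIP, and Id3, Bmp5 and Smad6, then Bmp4, Id1 and Fst with DMSO+VIP, besides Fst and Inhbb in both groups, so their order is not set by these data. Inhba lay under Smad7 and Id3 in every OCA+VIP library and above both in every DMSO+VIP library, by a small margin over Smad7 in DMSO+VIP library 3 (56.0 against 55.5 CPM per kb).

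**Figure D3:**
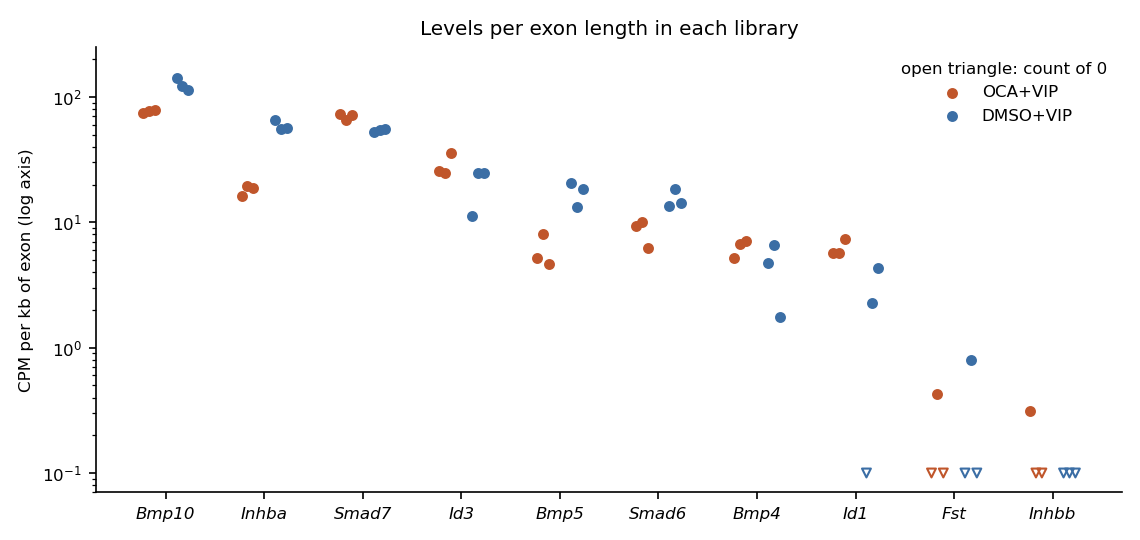
CPM per kilobase of exon on a log axis for the 10 genes, each point a library, OCA+VIP left of DMSO+VIP for each gene; open triangles at the foot mark libraries with a count of 0, which a log axis cannot show. Bmp10 is highest in both groups (76.6 and 126 CPM per kb on average), and Inhba changes place with Smad7 and Id3 between the groups.

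The 3 genes whose log2 CPM followed Inhba most closely over the 6 libraries, of 9033 others with a mean of at least 10 CPM, were Alpl, the tissue-nonspecific alkaline phosphatase gene, Postn, which encodes the matricellular protein periostin, and 1700025G04Rik. Their root mean square differences from Inhba, each gene centred on its own mean, were 0.10, 0.13 and 0.14 on the log2 scale, against a median of 0.89. These values are small by choice, since the 3 genes were picked on them. The measure includes the difference between the groups, so it does not show variation shared within a group. Alpl averaged 29.9 CPM with OCA+VIP and 99.4 CPM with DMSO+VIP, and Postn 78.3 and 226 CPM.

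A further 72 genes of the activin and BMP pathway were read in 5 lists. Of these, 17 had no count in any library, 39 were tested, 3 were called higher and 2 lower, and 34 did not pass (edgeR). This is 12.8% of those tested, close to the 11.8% of all genes. None of the 5 tested genes among 18 further ligands was called by edgeR, DESeq2 or limma-voom. At an unadjusted p under 0.05, 1 of the 5 was higher, Gdf10, named after its values were seen. At least 2896 of all 11286 tested genes had an unadjusted p under 0.05 in either direction. Gdf10 had 7.72, 3.82 and 4.22 CPM in OCA+VIP and 1.31, 0 and 1.61 CPM in DMSO+VIP libraries (edgeR adjusted p = 0.12). It passed the filter on low counts through its OCA+VIP libraries. The most abundant of these ligands were Bmp2 (37.7 ± 7.69 CPM with OCA+VIP and 40.9 ± 9.89 CPM with DMSO+VIP) and Gdf2, which encodes BMP9 (11.6 ± 3.67 and 16.7 ± 11.5 CPM; SD, n = 3). Their log2 fold changes were -0.14 (95% interval -0.59 to 0.31) and -0.55 (-1.42 to 0.33), with adjusted p of 0.75 and 0.45 by edgeR.

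Of 15 receptor and co-receptor genes, 10 were tested, and Rgmb, which encodes a BMP co-receptor of the repulsive guidance molecule family, was called higher. It had 35.6, 42.7 and 35.3 CPM with OCA+VIP, and 21.0, 14.97 and 25.3 CPM with DMSO+VIP (log2 fold change 0.87, SE 0.24, edgeR adjusted p = 0.020). The call was lost without any 1 of 5 libraries, all but DMSO+VIP library 3, with adjusted p from 0.058 to 0.079. The most abundant genes of this list were Eng, the endoglin gene (422 ± 13.7 CPM with OCA+VIP and 495 ± 33.4 CPM with DMSO+VIP), and Bmpr2, the type II BMP receptor gene (139 ± 14.0 and 136 ± 19.1 CPM). Neither passed the test (log2 fold changes -0.24 and 0.01, edgeR adjusted p = 0.20 and 0.96), and the 95% interval of Bmpr2 ran from -0.27 to 0.30.

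Of 17 secreted antagonists and binding proteins, 7 were tested and Fstl1 was called lower. Its product is a secreted glycoprotein of the follistatin-like family that has been reported to bind several ligands of the TGF-beta superfamily. Fstl1 had 274, 254 and 250 CPM with OCA+VIP, and 504, 468 and 509 CPM with DMSO+VIP, with no overlap and little spread within a group (log2 fold change -0.94, SE 0.12, edgeR adjusted p = 1.5e-05). Crim1, whose product tethers BMPs at the cell surface, had 207 ± 21.5 CPM with OCA+VIP and 255 ± 32.6 CPM with DMSO+VIP and missed the threshold, with a log2 change of -0.32 and an edgeR adjusted p of 0.10. The BMP antagonist genes Nog and Grem1 had a count of 0 in all 6 libraries and were named after their values were seen.

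Among 12 SMADs and intracellular regulators, 11 were tested, 1 was higher and 1 lower. Smad1, a SMAD that BMP receptors phosphorylate, had 68.7, 75.8 and 76.0 CPM with OCA+VIP, and 50.9, 32.2 and 39.0 CPM with DMSO+VIP (log2 fold change 0.82, SE 0.18, edgeR adjusted p = 0.0041). Smurf1, which encodes a ubiquitin ligase that targets SMAD1 and BMP receptors, had 166, 194 and 160 CPM with OCA+VIP, and 245, 247 and 202 CPM with DMSO+VIP (log2 fold change -0.44, SE 0.12, edgeR adjusted p = 0.023). Neither gene overlapped between groups, and the Smurf1 call was lost without any 1 of 4 libraries (DMSO+VIP 1 and 2, OCA+VIP 1 and 3), with adjusted p from 0.067 to 0.13.

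Of 10 target genes, 6 were tested. Tgfbi, which encodes an extracellular matrix protein induced by TGF-beta, was called higher, with 44.2, 37.4 and 43.5 CPM in OCA+VIP and 17.3, 19.9 and 16.5 CPM in DMSO+VIP libraries (log2 fold change 1.21, SE 0.23, edgeR adjusted p = 0.0014). Ctgf, an abundant gene that activin and TGF-beta signalling can induce, had 532 ± 76.5 CPM with OCA+VIP and 544 ± 53.2 CPM with DMSO+VIP (SD, n = 3). It did not pass the test (edgeR adjusted p = 0.89), and its 95% interval ran from -0.33 to 0.25 on the log2 scale. Whether activin signalling differed between the groups was not tested. A non-coding gene on the other strand, Gm15270, shares 23.2% of the exon bases of Ctgf in GENCODE.

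**Figure D4:**
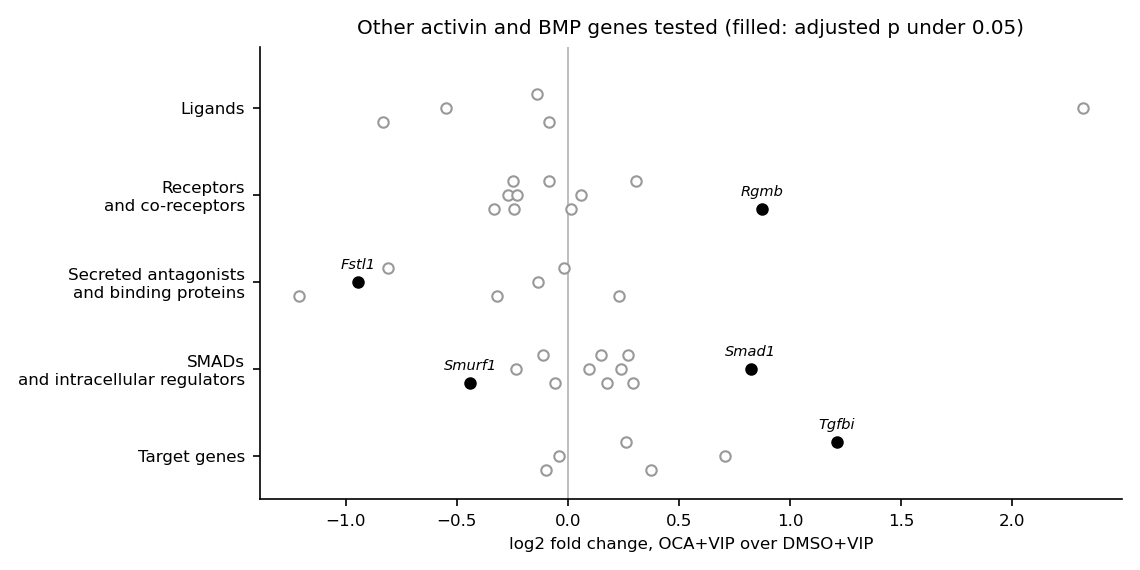
Log2 fold changes, OCA+VIP over DMSO+VIP, of the 39 tested genes of the 5 further lists, one row a list; each point is a gene, and filled points with names passed the test at an adjusted p under 0.05. Rgmb (0.87), Smad1 (0.82) and Tgfbi (1.21) were higher and Fstl1 (-0.94) and Smurf1 (-0.44) lower; the open point farthest to the right is Gdf10 (2.32), a gene of few counts that did not pass.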

How the data were processed

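Polyadenylated RNA of 6 samples was sequenced. The authors deposited 1 table of expected counts over exons, with 1 RefSeq transcript per gene, unadjusted for library size and in steps of 0.5, and its layout is that of HOMER. The table also gives other values, the exon length and genomic copies of each transcript. The submitters' processing notes name mm10, STAR, HOMER and DESeq2, without roles or versions; strand use and duplicate removal are not given in the sources used here. Columns were assigned to groups by name. Their numbers could not be tied to the lettered sample titles, so library numbers are those of the columns. The members and lists were chosen with earlier results of these data known.

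Counts were rounded to whole numbers and fitted in edgeR 4.0.16 (R 4.3.3, limma 3.58.1) with TMM scaling, filterByExpr (minimum count 10, minimum total 15) and a quasi-likelihood F test, two-sided, with Benjamini-Hochberg adjustment over all tested genes at 0.05. The steps were tested on simulated counts in which 200 genes were changed 2-fold or 4-fold. Of the 2-fold changes 72% were recovered, of the 4-fold changes 100%, with 6 false calls. Only genes of higher level than Bmp4 and Id1 were changed, so this covers neither genes of low counts nor changes under 2-fold. CPM are counts over the column total, without TMM. Intervals are 95% from the fit. Of counts above 0 and up to 30, between 37.5% (OCA+VIP library 2) and 58.2% per library lay within 0.5 of a multiple of 6. All 10 members are named. Of the other lists, each called gene is named, and the 2 of highest mean CPM where fewer than 2 were called. One gene that this rule names is not reported here. Alternatives were RLE, upper-quartile and no scaling, 2 other filters, DESeq2 1.42.0, limma-voom, a replicate block, counts divided by 6 and leaving out each library; DESeq2 on all genes with a count was chosen after seeing the data. Exon overlaps are from GENCODE M21. Figures used matplotlib 3.10.9.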

Additional observations from a re-analysis of the deposited data

How the results depend on the processing

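Across 13 genes (the 8 tested members and the 5 called pathway genes) and up to 16 alternatives, 206 values were obtained, none of opposite sign; 190 kept their side of the threshold, 11 lost the call (Smad6, Rgmb and Smurf1, each on leaving out a library) and 5 gained it, all for Smad7. The log2 fold changes of Inhba ranged from -1.76 to -1.65, of Bmp5 from -1.81 to -1.42, of Bmp10 from -0.81 to -0.64 and of Smad6 from -0.97 to -0.68. The members called higher numbered 1 (Smad7) with DESeq2, with column totals only, without a filter and with DESeq2 on all genes with a count, and 0 to 1 on leaving out a library; those called lower were 3 to 4. DESeq2 on all genes with a count called 2244 genes and 9 pathway genes, against 1328 and 5 in edgeR. Leaving out 1 library gave 737 to 1478 genes and 3 to 6 pathway genes: 877, 737 and 751 genes without DMSO+VIP library 1, OCA+VIP library 1 and OCA+VIP library 3, with 3 pathway genes each. The cause was not tested. With the column number as a replicate block, 1118 genes and 4 members were called. Same-numbered columns did not deviate together (correlations -0.04, -0.05 and 0.03). The highest correlation was between OCA+VIP library 2 and DMSO+VIP library 1 (0.08), so no shared deviation was seen and the numbers were not treated as pairs. The log2 difference in the ratio of Smad6 to Smad7 kept its direction without each library (-1.41 to -0.998), which the separation of both genes fixes in advance. That of Bmp5 to Bmp10 ranged from -1.08 to -0.68 on the log2 scale. With 1 count added the Smad6 to Smad7 ratio was -1.23; the ratios to Fst, to Inhbb and of Id1 to Id3 were not computed that way since they rest on counts near 0. Depth limits what can be said of Fst, Inhbb and Id1.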
